A study of Mus musculus with 6 samples.

Results

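The 10 genes described here act where fat from the blood enters muscle. They are Angptl4, the lipoprotein lipase gene Lpl and its partners Lmf1 and Gpihbp1, the uptake genes Cd36, Vldlr and Fabp3, and the receptor Ppard with its targets Pdk4 and Cpt1b. They were chosen by name around Angptl4, which was selected on its lower FPKM in the L7 than in the Control libraries in earlier results of these data. All 10 were found among the 52369 genes of the deposited table of FPKM values (fragment counts divided by gene length and by library size). Since the contrast of the groups chose them, their values are given as a description, with no test on the members.

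Lipoprotein lipase frees fatty acids from triglyceride-rich lipoproteins at the wall of capillaries. Muscle and fat cells make the enzyme, Lmf1 helps it fold, and Gpihbp1 carries it across the endothelium and holds it there. Angptl4 is a secreted inhibitor that inactivates the enzyme, and its gene is a classic target of PPAR receptors, which fatty acids activate. Cd36 takes up fatty acids, Fabp3 carries them inside the fibre, Cpt1b admits them to mitochondria, and Pdk4 restrains glucose oxidation when fat is burned.

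Gene expression had been measured by RNA sequencing of tibialis anterior muscle from C57BL/6 mice, with 3 libraries in each of 2 groups, Control and L7 (Linc-smad7 overexpression, a long non-coding RNA). In both groups the muscle had received 50 µl of 10 µM cardiotoxin, a venom toxin that kills muscle fibres, at 5 weeks of age. Both then received 6.25 µg of pcDNA3.1 plasmid in a transfection reagent, last on day 4. For both groups the plasmid injection was listed with 10% glucose and a volume of 50 µl. Muscle was collected on day 7, at a labelled age of 6 weeks. Plasmid injected into a muscle reaches only some of its cells. The insert of the Control plasmid was not given in the sources used here. No label ties libraries to separate mice. The Y-linked reads given below differed within each group, so the libraries of a group were not all from the same mouse. The p-values measure only the spread between these libraries, which may in part be technical.

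Each library held 19420012 to 24663153 reads in genes. One library, L7 replicate 3, differed from the rest. Over genes its correlation with the other 5 was 0.920 to 0.951, while each of the others reached at least 0.982 with another library. The summed FPKM of 12 adult fibre genes, among them Acta1 and Ckm, was 22580 to 31700 in the Control libraries, 34144 and 37062 in L7 replicates 1 and 2, and 101752 in L7 replicate 3, so the defining transcripts of skeletal muscle were abundant in all 6. In tissue RNA, fewer cells of a type and less RNA per cell cannot be told apart. Reads of 4 Y-linked genes numbered 3185 to 4184 in Control replicates 1 and 3 and L7 replicate 1, and 0 to 2 in the other 3 libraries, so both groups held libraries of both kinds. With this split as a covariate the log2 differences given below were -0.93 for Angptl4 and 0.48 for Lpl. Over the 14788 genes whose mean FPKM reached 1, the median log2 difference (L7 minus Control, on log2(FPKM + 1)) was -0.15. Differences are therefore also given relative to this median.

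Angptl4 was lower in the L7 libraries, at about 51.3% of the Control mean. The gene (ENSMUSG00000002289) spans 33773750 to 33781830 of chromosome 17, minus strand (mm10, GENCODE M21), and no other annotated gene overlaps it. Its FPKM was 59.9, 46.3 and 54.5 in Control replicates 1, 2 and 3 and 24.4, 27.2 and 30.8 in L7 replicates 1, 2 and 3. Every L7 value lay below every Control value, and L7 replicate 3, the library that stood apart, was the highest of the L7 group. The means were 53.5 ± 6.85 FPKM (SD, n = 3) and 27.5 ± 3.21 FPKM (SD, n = 3), resting on 1354 to 2026 and 816 to 984 reads per library. The log2 difference was -0.94 ± 0.16 (SE), or -0.78 relative to all genes, and -1.02 without L7 replicate 3. Groups stood apart in this direction in 13.7% of all genes tested.

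Lpl, the lipase that Angptl4 inhibits, was higher in the L7 libraries. It spans 68880491 to 68907448 of chromosome 8, plus strand. Its FPKM was 36.0, 34.3 and 29.3 in the Control libraries and 43.6, 44.5 and 57.5 in the L7 libraries, in order of replicate. The lowest L7 value exceeded the highest Control value, and L7 replicate 3 was the highest. The means were 33.2 ± 3.48 FPKM (SD, n = 3) and 48.5 ± 7.76 FPKM (SD, n = 3), and the log2 difference was 0.53 ± 0.16 (SE), or 0.68 relative to all genes. Without L7 replicate 3 it was 0.40. Over all genes tested, 5.49% had every L7 value above every Control value.

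**Figure D1:**
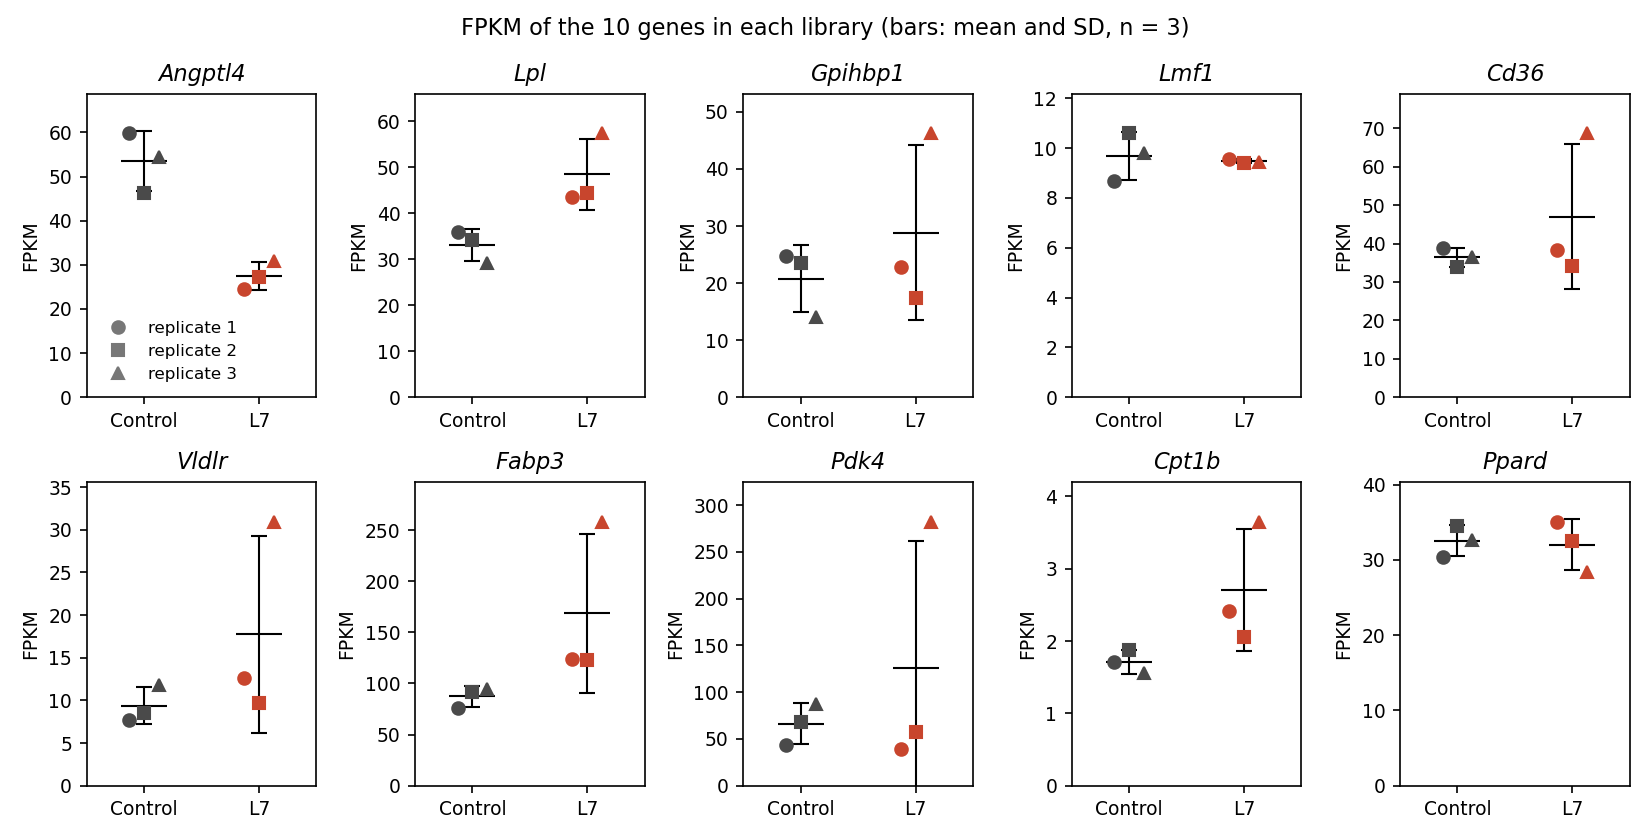
FPKM (y axis, linear, from 0) of each of the 10 genes by group (x axis), with 1 point per library, its shape giving the replicate number, and the mean and SD of 3 libraries as bars (the SD bar of Pdk4 in L7 is cut at 0). Angptl4 is lower in all 3 L7 libraries, at 24.4 to 30.8 against 46.3 to 59.9, and L7 replicate 3 is the highest library for Lpl, Gpihbp1, Cd36, Vldlr, Fabp3, Pdk4 and Cpt1b.

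The ratio of the 2 genes within a library does not depend on how libraries are scaled. Angptl4 stood at 1.66, 1.35 and 1.86 times the FPKM of Lpl in the Control libraries and at 0.560, 0.610 and 0.536 times in the L7 libraries. Inhibitor transcript exceeded lipase transcript per length in every Control library and was the lower of the pair in every L7 library. The mean ratio was 1.63 ± 0.258 (SD, n = 3) against 0.569 ± 0.0378 (SD, n = 3), a difference of -1.50 in log2 ratio, and -1.46 without L7 replicate 3. L7 replicate 3, which differed so much in fibre genes, had a ratio close to those of the other L7 libraries. This ratio combines values that chose the genes and is a description.

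The lipase's maturation factor and its anchor did not share the pattern of Lpl. Lmf1 spans 25579085 to 25662826 of chromosome 17 and Gpihbp1 spans 75596628 to 75599481 of chromosome 15. Lmf1, a membrane protein of the endoplasmic reticulum needed for active lipase, was at 8.68, 10.6 and 9.80 FPKM in Control and 9.58, 9.41 and 9.45 FPKM in L7 libraries. The groups overlapped, with a log2 difference of -0.03 ± 0.14 (SE), or 0.14 after median of ratios scaling, and the L7 libraries spanned a narrower range than the Controls. Gpihbp1, the capillary anchor, was at 24.7, 23.6 and 14.0 FPKM in Control and 22.8, 17.4 and 46.3 FPKM in L7 libraries. L7 replicate 3 alone was above the Control range, and the log2 difference of 0.37 ± 0.37 (SE) became -0.02 without it. Lpl was 1.45, 1.45 and 2.09 times Gpihbp1 in Control and 1.91, 2.56 and 1.24 times in L7 libraries, so that ratio overlapped between groups.

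**Figure D2:**
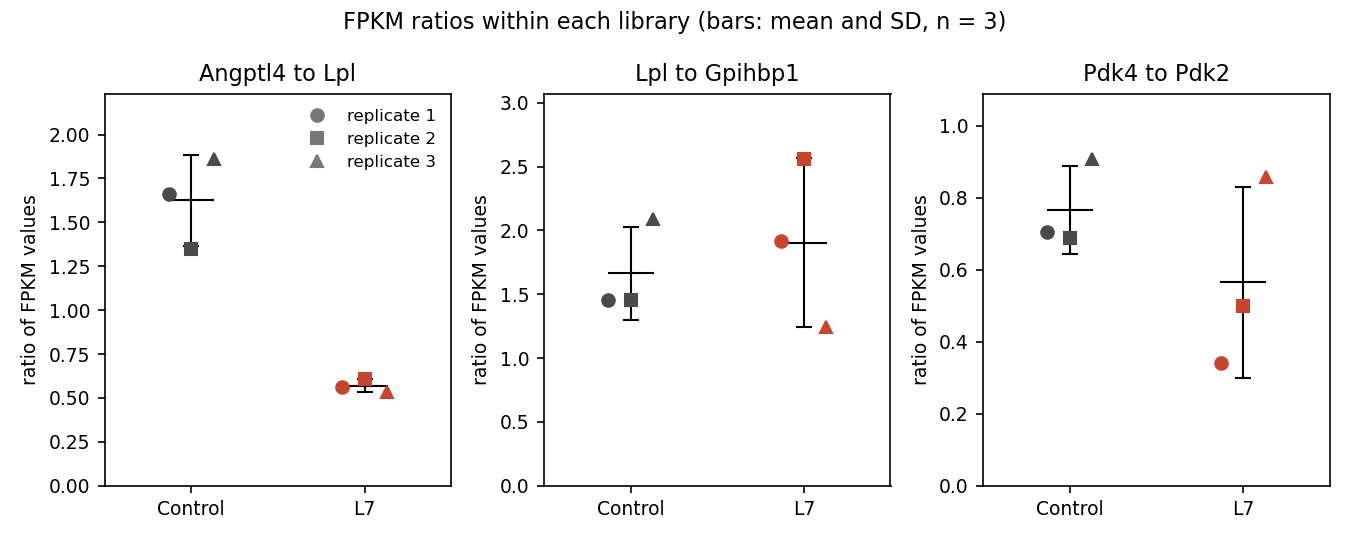
Ratio of FPKM values of gene pairs within each library (y axis, linear, from 0) by group (x axis), with points for libraries and bars for mean and SD of 3. Angptl4 to Lpl is 1.35 to 1.86 in Control and 0.536 to 0.610 in L7 libraries, while the ratios of Lpl to Gpihbp1 and of Pdk4 to Pdk2 overlap between the groups.

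The 12 capillary endothelium markers summed to 413 to 469 FPKM in Control and 405 to 464 FPKM in L7 libraries. Of the 12, 5 were higher and 7 lower, with a median log2 difference of -0.02, or 0.13 relative to all genes. Groups stood apart in 0 of them, beside 5.49% of all genes upward and 13.7% downward. Cdh5, the cadherin of endothelial junctions, was at 71.9 ± 12.4 FPKM (SD, n = 3) and 71.97 ± 2.83 FPKM (SD, n = 3). Pecam1, an adhesion molecule of the same junctions, was at 70.98 ± 5.22 FPKM (SD, n = 3) and 63.2 ± 3.99 FPKM (SD, n = 3). In the authors' deposited comparison the log2 fold changes of Cdh5, Pecam1, Eng and Vwf were 0.19, 0.02, 0.13 and 0.42. In L7 replicate 3 the marker sum was 1.10 times the mean of L7 replicates 1 and 2, where Gpihbp1 was 2.31 times that mean. The part of endothelium in the Gpihbp1 values was not tested.

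Promoter sequence is shown for Cd36, Fabp3 and Pdk4, as examples of a fatty acid transporter, an intracellular carrier and a PPAR target whose values follow. The RefSeq-based table (GRCm38.p6) held 6 of the 10 genes, and Lmf1, Ppard and Vldlr, which also have entries, are not printed. Each runs from 250 bases before to 50 after the annotated start, 5′ to 3′, on the gene's strand: chr5:17835847-17836146 (minus) for Cd36, chr4:130308488-130308787 (plus) for Fabp3 and chr6:5496229-5496528 (minus) for Pdk4. Capitals mark the nuclear receptor core motif AGGTCA and the CCAAT box, searched on both strands.
Cd36: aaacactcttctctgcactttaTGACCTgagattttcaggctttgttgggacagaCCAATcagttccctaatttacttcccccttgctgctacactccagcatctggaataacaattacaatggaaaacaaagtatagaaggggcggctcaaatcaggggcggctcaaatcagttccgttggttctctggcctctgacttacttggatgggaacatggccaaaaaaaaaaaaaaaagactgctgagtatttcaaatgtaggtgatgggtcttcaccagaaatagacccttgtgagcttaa
Fabp3: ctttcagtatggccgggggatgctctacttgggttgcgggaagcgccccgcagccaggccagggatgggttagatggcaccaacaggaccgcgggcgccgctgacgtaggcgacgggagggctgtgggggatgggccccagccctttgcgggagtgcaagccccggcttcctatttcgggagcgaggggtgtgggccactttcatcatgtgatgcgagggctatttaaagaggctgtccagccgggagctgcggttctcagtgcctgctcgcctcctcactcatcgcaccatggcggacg
Pdk4: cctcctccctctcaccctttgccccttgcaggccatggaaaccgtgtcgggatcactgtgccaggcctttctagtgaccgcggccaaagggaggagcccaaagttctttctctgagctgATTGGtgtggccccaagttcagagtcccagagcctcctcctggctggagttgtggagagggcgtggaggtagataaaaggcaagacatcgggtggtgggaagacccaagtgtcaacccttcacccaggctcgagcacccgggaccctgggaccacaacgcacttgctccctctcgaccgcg

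Cd36 held a core motif starting at position -228 and a CCAAT box at -195 relative to the start site, Pdk4 a CCAAT box at -131, and Fabp3 neither. The window of Cd36 lies inside the gene's span of 17781690 to 17888801 on the minus strand, so it belongs to an internal start site. The core motif was found in 16.26% and the CCAAT box in 37.41% of 32851 promoter windows of this length. PPAR with its partner RXR binds core motifs in tandem. The repeat AGGNCANAGGNCA, whose parts can overlap matches of the core motif, was in 0.38% of windows and in none of the 7 windows of the 6 genes with an entry. These matches describe letters in a short window.

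Of the uptake genes, Cd36 was level between the groups apart from L7 replicate 3, and Vldlr overlapped between them. Their loci are chromosome 5 from 17781690 to 17888801 and chromosome 19 from 27216484 to 27254231. Cd36 was at 38.9, 33.8 and 36.6 FPKM in Control and 38.2, 34.1 and 68.7 FPKM in L7 libraries. Its log2 difference was 0.29 ± 0.26 (SE) and -0.01 without L7 replicate 3. Vldlr, a receptor that binds triglyceride-rich lipoproteins near the lipase, was at 7.71, 8.54 and 11.8 FPKM in Control and 12.6, 9.64 and 30.9 FPKM in L7 libraries. Here L7 replicate 2 fell within the Control range, and the log2 difference went from 0.71 ± 0.40 (SE) to 0.24 without L7 replicate 3.

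Fabp3, the fatty acid carrier of the fibre cytoplasm, had the highest mean FPKM of the 10 genes in both groups. Its locus is on chromosome 4 from 130308595 to 130315463. It was at 75.5, 91.5 and 94.7 FPKM in Control and 124, 123 and 258 FPKM in L7 libraries. The groups did not overlap, and L7 replicate 3 was at 2.09 times the mean of the other two L7 libraries. The log2 difference was 0.86 ± 0.30 (SE), or 1.01 relative to all genes, and 0.50 without L7 replicate 3. Zcchc17 overlaps Fabp3 on the opposite strand, and a processed pseudogene, Fabp3-ps1 on chromosome 10, had a mean of 4.41 FPKM. The strand setting and the handling of shared reads were not given in the sources used here, so a part of these reads may belong to either.

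Ppard, the PPAR receptor most tied to muscle fat use, differed little in level between libraries. It lies on chromosome 17 from 28232700 to 28301474. Its FPKM was 30.4, 34.5 and 32.7 for Control and 35.1, 32.6 and 28.4 for L7 libraries, with overlapping groups and a log2 difference of -0.03 ± 0.14 (SE), or 0.14 after median of ratios scaling. Pdk4, a kinase that inactivates pyruvate dehydrogenase, had the widest spread within each group, relative to its mean, of the 10 genes. The gene spans 5483351 to 5496309 of chromosome 6, and its FPKM stood at 43.0, 68.5 and 86.9 for Control and at 38.9, 57.0 and 282 for L7 libraries. L7 replicate 3 was 5.89 times the mean of the other two L7 libraries, and the log2 difference of 0.43 ± 0.69 (SE) turned to -0.42 without it. The direction for Pdk4 therefore rested on 1 library.

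Cpt1b, the muscle form of the transferase that commits fatty acids to oxidation, had the lowest printed level of the 10. Its locus is on chromosome 15 from 89416405 to 89425863. It was at 1.71, 1.88 and 1.55 FPKM in Control and 2.42, 2.05 and 3.65 FPKM in L7 libraries, from only 42 to 45 and 50 to 91 reads. Each L7 value was above each Control value, and the log2 difference was 0.43 ± 0.20 (SE), or 0.25 without L7 replicate 3. The annotated gene Gm44502 overlaps Cpt1b on the same strand, and the handling of reads shared with it was likewise unstated. The level of Cpt1b and its rank may therefore be an undercount.

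In all, every L7 value lay above every Control value in 3 of the 10 genes (Lpl, Fabp3 and Cpt1b) and below in 1 (Angptl4), against 5.49% and 13.7% of all genes tested. These shares are no result about the 10 genes, since this contrast was used in choosing them. The 4 genes kept their separation after scaling the libraries by the median of ratios. Without Control replicate 1 the count below was 2, with Lmf1 added. No gene of the 14788 passed limma at an adjusted p of 0.05 (0.0% called, with 873 at an unadjusted p below 0.05 and 0 by limma voom on recovered reads), the 10 genes included.

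**Figure D3:**
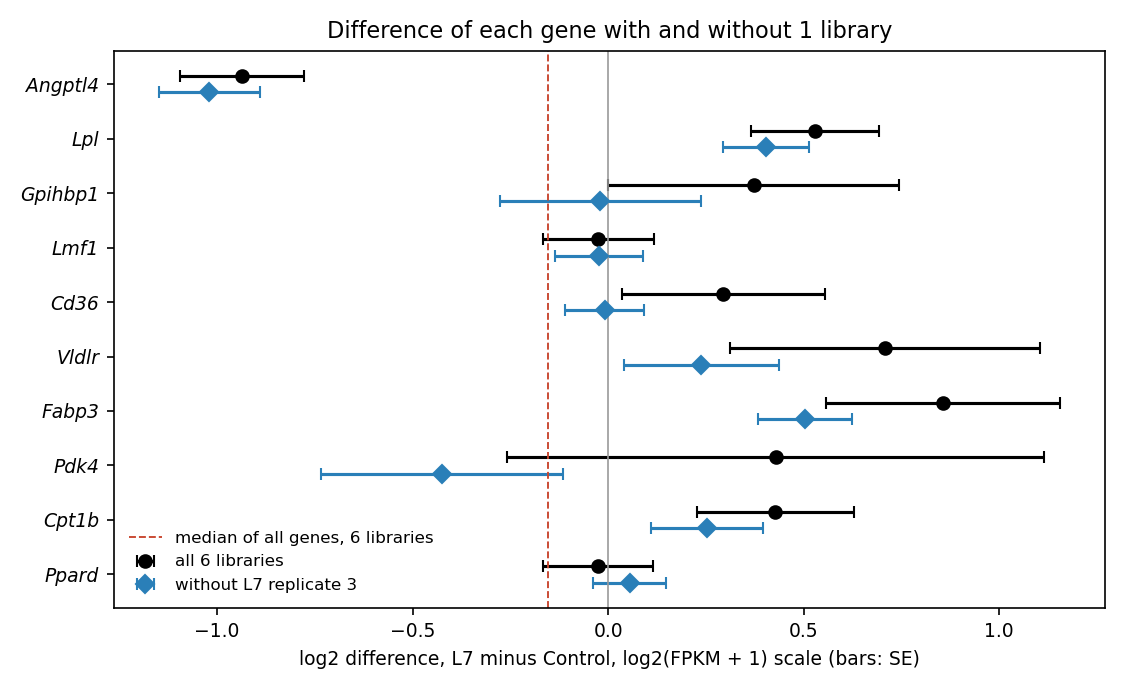
Log2 difference, L7 minus Control, on the log2(FPKM + 1) scale (x axis) for each of the 10 genes (y axis), with SE bars from limma, for all 6 libraries (black circles) and without L7 replicate 3 (blue diamonds). Angptl4 and Lpl keep their direction (-0.94 and -1.02, 0.53 and 0.40), whereas Gpihbp1 and Cd36 move to near 0 and Pdk4 goes from 0.43 to -0.42.

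The order of levels per length changed at Angptl4. In Control libraries the order of mean FPKM was Fabp3, Pdk4, Angptl4, Cd36, Lpl, Ppard, Gpihbp1, Lmf1, Vldlr and Cpt1b. Neighbours whose libraries overlapped were Fabp3 and Pdk4, Pdk4 and Angptl4, Cd36 and Lpl, Lpl and Ppard, and Lmf1 and Vldlr. In L7 libraries Angptl4 moved from rank 3 to rank 7, after Lpl, Cd36, Ppard and Gpihbp1, and Lpl from rank 5 to rank 3. All neighbours in the L7 order overlapped except Vldlr with Lmf1 and Lmf1 with Cpt1b.

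Values set against fibre content gave another view of the uptake and oxidation genes. Per 10000 FPKM of the summed fibre markers, Fabp3 was at 33.4, 28.9 and 31.8 for Control and 36.4, 33.1 and 25.4 for L7 libraries. The fibre sum was itself higher in every L7 than in every Control library, which lowers all L7 values on this scale. The groups of Fabp3 overlapped here, as did those of Lpl, Gpihbp1, Cd36, Vldlr, Pdk4 and Cpt1b. Lmf1 and Ppard, whose groups overlapped in FPKM, had every L7 value below every Control value on this scale. Lmf1 was at 3.84, 3.34 and 3.29 for Control and 2.81, 2.54 and 0.929 for L7 libraries. Ppard was at 13.48, 10.88 and 10.98 for Control and 10.28, 8.79 and 2.79 for L7 libraries. Standing apart downward on this scale therefore did not require standing apart in FPKM. Angptl4 was at 26.5, 14.6 and 18.3 for Control and 7.15, 7.33 and 3.03 for L7 libraries, a separation that the higher fibre sum could only keep. The part of fibre content in the differences was not tested.

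Genes around the lipase were compared as lists by function. Of 19 other genes that regulate or assist lipases, 11 had a mean FPKM of at least 1, with 6 higher, 5 lower and a median log2 difference of 0.03 (all genes: 4312 higher, 10476 lower, median -0.15). None of the 11 had groups that stood apart, beside 5.49% of all genes upward and 13.7% downward. Hspg2, the basement membrane proteoglycan perlecan, was at 90.9 ± 13.8 FPKM (SD, n = 3) and 97.0 ± 9.47 FPKM (SD, n = 3). Pnpla2, the lipase that starts breakdown of stored fat, was at 56.8 ± 16.2 FPKM (SD, n = 3) and 86.3 ± 50.6 FPKM (SD, n = 3). Sdc1, a heparan sulfate proteoglycan, was at 67.9 ± 11.4 FPKM (SD, n = 3) and 47.6 ± 19.5 FPKM (SD, n = 3), and the endothelial lipase Lipg was at 4.58 ± 2.03 FPKM (SD, n = 3) and 2.70 ± 1.95 FPKM (SD, n = 3). The activator Apoc2 was listed at 0 to 0.253 FPKM and the inhibitor Apoc3 at 0 in every library. Apoc1, another plasma apolipoprotein that inhibits the lipase, averaged 2.04 FPKM in Control and 2.84 FPKM in L7 libraries, from 13 to 30 reads, and its groups overlapped.

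Within the angiopoietin-like family the other members of mean FPKM at least 1 had overlapping groups. Angptl2, a secreted glycoprotein tied to inflammation, averaged 147 ± 61.3 FPKM (SD, n = 3) over Control and 114 ± 17.5 FPKM (SD, n = 3) over L7 libraries, above Angptl4 in every library. Angptl1 was at 33.4 ± 14.3 FPKM (SD, n = 3) and 31.6 ± 4.90 FPKM (SD, n = 3). Angptl7 was at 0.944 ± 1.02 FPKM (SD, n = 3) and 2.25 ± 1.32 FPKM (SD, n = 3). In limma their log2 differences were -0.27 ± 0.33, 0.02 ± 0.34 and 0.76 ± 0.44 (SE), with adjusted p-values of 0.678, 0.981 and 0.580.

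Among 10 measured lipoprotein receptors and their helpers, 3 were higher and 7 lower, beside 4312 and 10476 of all genes. The list median was -0.21, or 0.07 without L7 replicate 3. Lrp1, a large endocytic receptor, was at 459 ± 27.0 FPKM (SD, n = 3) and 415 ± 188 FPKM (SD, n = 3), with L7 replicate 3 at 207 FPKM. Its chaperone Lrpap1 was at 74.4 ± 1.49 FPKM (SD, n = 3) and 67.2 ± 13.8 FPKM (SD, n = 3). Lrp8, the close relative of Vldlr, was at 3.34 ± 0.0713 FPKM (SD, n = 3) and 2.17 ± 1.29 FPKM (SD, n = 3), and the sorting receptor Sort1 was at 12.2 ± 0.662 FPKM (SD, n = 3) and 14.8 ± 2.56 FPKM (SD, n = 3).

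Of 15 measured fatty acid uptake and activation genes, 5 were higher and 10 lower, beside 4312 and 10476 of all genes. The list median was -0.23, or -0.07 leaving out L7 replicate 3. Cav1, the caveola coat protein, was at 264 ± 75.6 FPKM (SD, n = 3) and 218 ± 4.63 FPKM (SD, n = 3), and the acyl-CoA carrier Dbi was at 146 ± 9.08 FPKM (SD, n = 3) and 145 ± 5.33 FPKM (SD, n = 3). Acsl1, the main muscle acyl-CoA synthetase, was at 55.8 ± 8.23 FPKM (SD, n = 3) and 84.8 ± 34.0 FPKM (SD, n = 3), with a limma adjusted p of 0.580. Slc27a3 was at 12.1 ± 1.68 FPKM (SD, n = 3) and 9.07 ± 1.42 FPKM (SD, n = 3), and each of its L7 values was below each Control value. In this list the groups stood apart in 1 gene higher and 3 lower, beside 5.49% and 13.7% of all genes.

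Other PPAR targets of muscle were mostly higher, with 19 of 23 positive and a median of 0.31, which became 0.08 without L7 replicate 3. Every L7 value was above every Control value in 4 and below in 2, beside 5.49% and 13.7% of all genes. One of the 2 was Plin2, the coat protein of lipid droplets. Its FPKM was 371, 301 and 425 for Control and 263, 234 and 155 for L7 libraries, with means of 366 ± 62.2 FPKM (SD, n = 3) and 217 ± 55.7 FPKM (SD, n = 3). Its log2 difference was -0.77 ± 0.24 (SE), with a limma adjusted p of 0.580, and -0.54 without L7 replicate 3. Ucp2, a mitochondrial carrier, was at 273 ± 68.5 FPKM (SD, n = 3) and 252 ± 72.6 FPKM (SD, n = 3). Mlycd, which removes the inhibitor of Cpt1, was at 12.9 ± 1.43 FPKM (SD, n = 3) and 22.4 ± 11.4 FPKM (SD, n = 3). Every L7 library was above the Controls for Mlycd, with 35.6 FPKM in L7 replicate 3. The part of PPAR receptors in the values of these genes or of Angptl4 was not tested.

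The PPAR and RXR receptors and their cofactors had 9 of 17 genes higher and 8 lower, and their median was 0.17, or -0.04 among genes of mean FPKM at least 5. The groups stood apart upward in 4 and downward in 0 (all genes 5.49% and 13.7%). Rxrg, the RXR form enriched in muscle, was at 9.66, 8.64 and 8.93 FPKM in Control and 12.04, 11.2 and 14.8 FPKM in L7 libraries. Ppargc1b, a coactivator of mitochondrial genes, was at 6.25, 6.62 and 7.18 FPKM in Control and 9.33, 8.996 and 7.78 FPKM in L7 libraries, and here L7 replicate 3 was the lowest of its group. Their log2 differences were 0.43 ± 0.16 and 0.33 ± 0.15 (SE), both with a limma adjusted p of 0.580. Rxrb was at 61.1 ± 0.798 FPKM (SD, n = 3) and 68.9 ± 5.72 FPKM (SD, n = 3), and the orphan receptor Esrra was at 78.1 ± 8.30 FPKM (SD, n = 3) and 108 ± 38.6 FPKM (SD, n = 3).

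Pyruvate dehydrogenase genes, the targets and relatives of Pdk4, had 8 of 11 members higher and 3 lower, and their median was 0.30, or 0.16 leaving out L7 replicate 3. The groups stood apart upward in 5 and downward in 1 (all genes 5.49% and 13.7%). Pdk2, the more abundant kinase, was at 61.1, 99.5 and 95.8 FPKM in Control and 115, 114 and 330 FPKM in L7 libraries. Pdk4 was 0.704, 0.689 and 0.908 times Pdk2 in Control and 0.340, 0.498 and 0.856 times in L7 libraries, with overlapping groups. Pdpr and Pdp1, which regulate and carry out dephosphorylation of the enzyme, averaged 11.3 ± 0.314 and 13.7 ± 0.544 FPKM (SD, n = 3) over Control and 14.7 ± 1.18 and 18.1 ± 3.09 FPKM (SD, n = 3) over L7 libraries. The subunit Pdha1 was at 135 ± 12.8 FPKM (SD, n = 3) and 166 ± 39.8 FPKM (SD, n = 3).

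Angptl4 is also induced by glucocorticoids and by low oxygen, and genes of both responses were listed. The 14 measured glucocorticoid-induced genes had 7 higher and 7 lower, and their median was 0.01. Leaving out L7 replicate 3 the median was 0.17, and with median of ratios scaling as well it was 0.20, with 10 higher and 4 lower. The groups stood apart upward in 1 gene and downward in 0 (all genes 5.49% and 13.7%). That gene was the kinase Sgk1, at 59.8, 67.0 and 72.03 FPKM in Control and 85.8, 76.6 and 110 FPKM in L7 libraries. Per1, a clock gene, was at 18.0 ± 4.47 FPKM (SD, n = 3) and 26.1 ± 7.30 FPKM (SD, n = 3), and the metal-binding Mt1 was at 109 ± 27.9 FPKM (SD, n = 3) and 93.4 ± 28.0 FPKM (SD, n = 3).

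The 15 hypoxia-induced genes had 5 higher and 10 lower, and their median was -0.32, or -0.20 leaving out L7 replicate 3. In 5 of them every L7 value was below every Control value, and in 0 above, beside 13.7% and 5.49% of all genes. Adm, a vasodilator peptide gene, was at 6.99, 6.71 and 8.82 FPKM in Control and 5.72, 4.43 and 4.38 FPKM in L7 libraries. P4ha1, a collagen prolyl hydroxylase subunit, was at 50.4 ± 2.67 FPKM (SD, n = 3) and 34.3 ± 9.80 FPKM (SD, n = 3). The glycolytic members had higher L7 means with overlapping groups, with Ldha at 1375 ± 118 FPKM (SD, n = 3) and 1986 ± 795 FPKM (SD, n = 3) and Pgk1 at 340 ± 38.9 FPKM (SD, n = 3) and 412 ± 168 FPKM (SD, n = 3). Both are also abundant in muscle fibres. The part of glucocorticoids or of low oxygen in the Angptl4 values was not tested. Relative to all genes the medians of the lipoprotein receptor, uptake and hypoxia lists were -0.06, -0.08 and -0.17. In the same terms the PPAR target, pyruvate dehydrogenase and cofactor lists were at 0.46, 0.45 and 0.32. The lipase, angiopoietin-like and glucocorticoid lists were at 0.19, 0.19 and 0.16. Of all these pathway lists no gene passed limma over all genes, and 0 to 4 genes per list were below an unadjusted p of 0.05, the most among the hypoxia-induced genes.

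**Figure D4:**
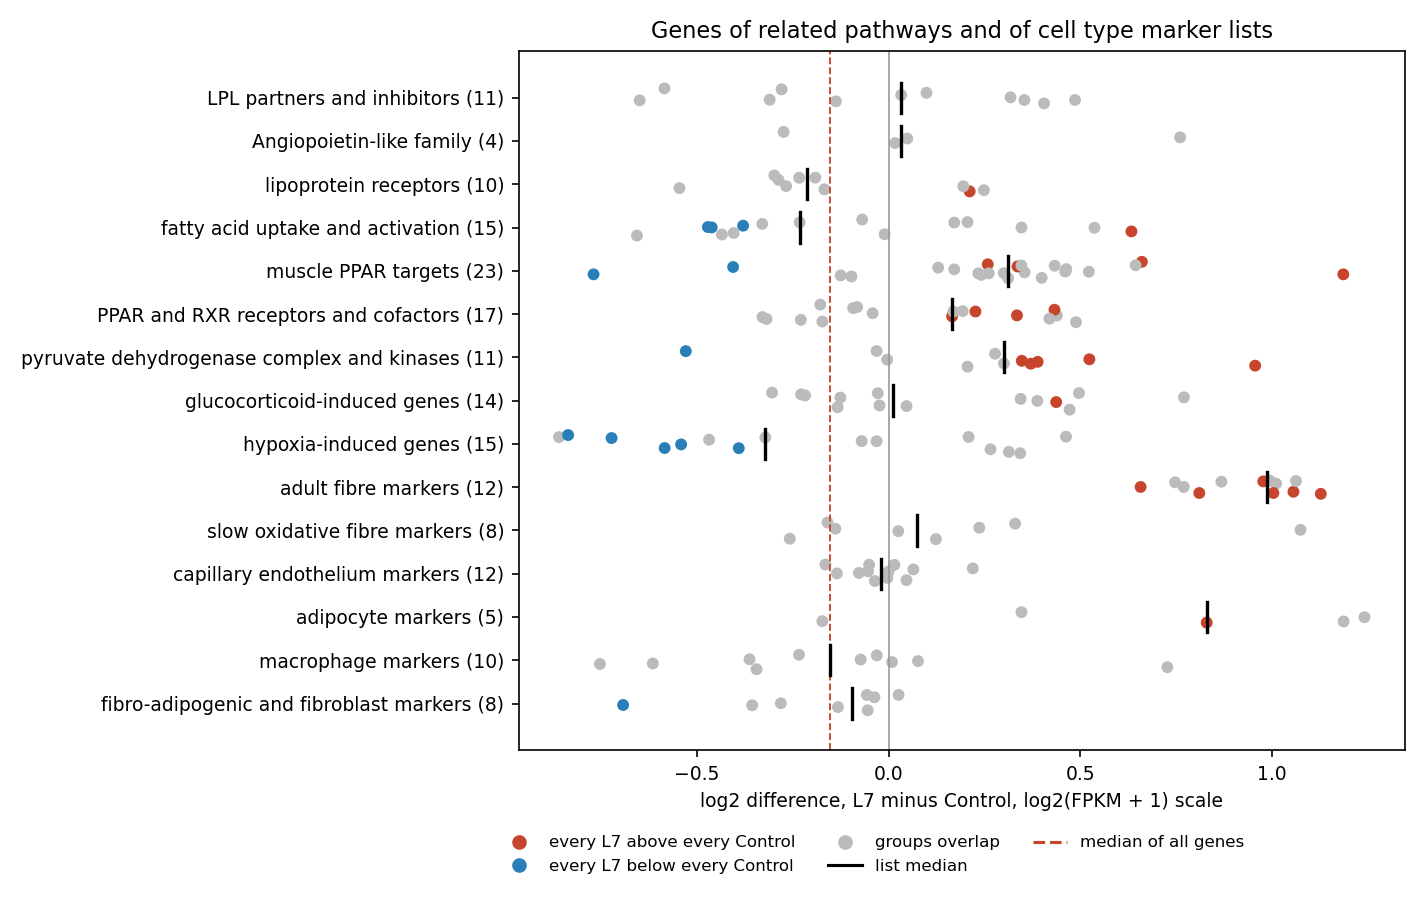
Log2 difference, L7 minus Control, on the log2(FPKM + 1) scale (x axis) for each measured gene (points) of the pathway and cell type marker lists (y axis, number measured in brackets), coloured by whether the groups stood apart, with list medians (black) and the median of all genes (dashed). The median of adult fibre markers is 0.99, or 0.37 without L7 replicate 3, and that of hypoxia-induced genes is -0.32, or -0.20 without it.

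Markers of other cells that make or use the lipase were set beside these values. The 9 adipocyte markers summed to 50.2 to 55.5 FPKM in Control and to 66.9, 56.0 and 109 FPKM in L7 libraries, mostly from Fabp4, which capillaries and macrophages also express. Fabp4 was at 39.2 ± 4.25 FPKM (SD, n = 3) and 51.2 ± 14.5 FPKM (SD, n = 3), and Pparg, the receptor that drives fat cell formation, was at 8.58 ± 1.27 FPKM (SD, n = 3) and 7.56 ± 1.65 FPKM (SD, n = 3). Adipoq, the adipocyte hormone adiponectin, was at 0.261, 0.618 and 1.06 FPKM in Control and 3.20, 1.21 and 1.55 FPKM in L7 libraries, above in each L7 library but low. The serine protease Cfd was at 1.33 ± 0.998 FPKM (SD, n = 3) and 4.36 ± 2.72 FPKM (SD, n = 3). No marker of the list was at 0 in all libraries, 4 of 9 had a mean below 1 FPKM, and the part of fat cells in the Lpl values was not tested.

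The 10 macrophage markers summed to 7125 to 8199 FPKM in Control and to 8349, 8384 and 5608 FPKM in L7 libraries. The lysozyme gene Lyz2 was at 1458 ± 266 FPKM (SD, n = 3) and 1492 ± 680 FPKM (SD, n = 3), and Apoe, also a lipoprotein ligand, was at 5209 ± 257 FPKM (SD, n = 3) and 5278 ± 798 FPKM (SD, n = 3). Fcgr1, an immunoglobulin receptor, was at 230 ± 64.0 FPKM (SD, n = 3) and 144 ± 66.8 FPKM (SD, n = 3), and the scavenger receptor Cd163 was at 0.708 ± 0.170 FPKM (SD, n = 3) and 2.02 ± 1.23 FPKM (SD, n = 3). The sum of macrophage markers was thus lowest in L7 replicate 3. Over all 6 libraries 3 of the 10 markers were higher and 7 lower, beside 4312 and 10476 of all genes. Their median log2 difference was -0.15, as it was for all genes. Leaving out L7 replicate 3 the marker median was 0.16, beside -0.03 for all genes. With median of ratios scaling as well it was 0.19, with 8 higher and 2 lower. Fibroblast markers summed to 12627 to 16853 FPKM in Control and 10879 to 15801 FPKM in L7 libraries. Among these 8 markers 1 was higher and 7 lower, with a median log2 difference of -0.09, or 0.06 relative to all genes. Groups stood apart downward in 1 marker and upward in 0, beside 13.7% and 5.49% of all genes. That marker was Ly6a, a surface protein of progenitors and endothelium that interferon also induces. Ly6a was at 1020 ± 227 FPKM (SD, n = 3) and 625 ± 100 FPKM (SD, n = 3), with each L7 value below each Control value. Its log2 fold change in the authors' deposited comparison was -0.55, against 0.11 for Col1a1, 0.04 for Col3a1 and -0.20 for Mfap5. The 8 slow fibre markers summed to 1345 to 1749 FPKM and 1624 to 2412 FPKM. The markers did not move together: myoglobin (Mb) was at 1601 FPKM in L7 replicate 3 against 272 and 430 FPKM in the other two L7 libraries, while the slow troponin Tnni1 was at 371 FPKM against 627 and 528 FPKM. The part of macrophages, fibroblasts or slow fibres in the values of the 10 genes was not tested.

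Genes with the pattern most like that of Angptl4 were sought over the 6 libraries. Likeness was Pearson's r of log2(FPKM + 1) among named genes of mean FPKM at least 5, and the libraries share the group difference that chose Angptl4. The 5 most like were Hap1 (r = 0.978), Krtcap2 (0.975), Apol9b (0.969), Crem (0.965) and Whamm (0.964). Krtcap2 ordered the 6 libraries exactly as Angptl4 did, at 64.1, 56.4 and 59.0 FPKM in Control and 47.8, 49.0 and 52.9 FPKM in L7 libraries. All 5 had every L7 value below every Control value in FPKM, but after median of ratios scaling their groups overlapped, and those of Angptl4 did not. For Lpl the 5 most like were Hspb3, Tmem259, Hras, Dmd and Mrm2, with r from 0.988 to 0.992. Dmd, the dystrophin gene, was at 15.4, 14.8 and 13.6 FPKM in Control and 18.0, 17.6 and 23.1 FPKM in L7 libraries. For Pdk4 they were Hrasls, Mlf1, Sun2, Bola1 and Coa3, with r from 0.989 to 0.993, each highest in L7 replicate 3. Among the 10 genes r with Angptl4 ran from -0.75 for Lpl to -0.06 for Lmf1, and r between Fabp3 and Cpt1b was 0.95.

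The authors' deposited table of group comparisons gave the same direction for Angptl4, with mean normalised reads of 1631 in Control and 966 in L7, a log2 fold change of -0.75, a p of 0.00586 and an adjusted p of 1.0. It was marked significant there, as were 359 of 31690 genes with a p-value (1.13%). The unadjusted p-values of the marked genes in that comparison reached 0.0498, so the mark did not rest on the adjusted p. No other of the 10 genes was marked. For Lpl the authors' deposited table gave a log2 fold change of 0.77 with a p of 0.0541. The authors' deposited pathway table placed 3 marked genes among the 82 of PPAR signalling, namely Angptl4, Adipoq and Plin1. Adipoq and Plin1 were marked in the opposite direction to Angptl4, with log2 fold changes of 1.75 and 3.24. Both were low, at 12.2 and 3.61 mean normalised reads in Control and 41.0 and 34.0 in L7. In the authors' deposited comparison the adjusted p of Plin1 was 0.302. Plin2, like Angptl4, was marked as lower in the authors' deposited table, with a log2 fold change of -0.61 and a p of 0.0373. In the authors' deposited table of Gene Ontology terms, Angptl4 was among the 10 marked genes of the hypoxia response, a term of 291 genes with a corrected p of 0.131. It was the only marked gene of the term for negative regulation of lipoprotein lipase activity, which held 6 genes and had a corrected p of 0.795.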

How the data were processed

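The deposited FPKM values were made by the authors, with 1 value for each of 52369 genes and 6 libraries. Per the submitters' processing notes the build was mm10 and the tools were HISAT2 2.0.4, DESeq 1.12.0, TopHat2 2.0.12 and Bowtie2 2.2.3. Their roles, the counting program and the gene models were not given in the sources used here. Per the file headers, the authors' deposited comparison holds a mean normalised signal per group, p-values raw and adjusted, and a log2 fold change, and the authors' enrichment tables hold p-values and numbers of genes.

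Symbols were matched for 51633 genes by Ensembl identifier and coordinates were taken from GENCODE M21, on the same build. Whole reads were recovered from the steps between low values and the authors' group means: 100% of 152096 values above 0 came within 0.05 of a whole number.

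Genes of mean FPKM at least 1 (14788) were fitted with limma 3.58.1 (R 4.3.3) on log2(FPKM + 1), with a mean-variance trend, group as the only factor, a two-sided test, Benjamini-Hochberg adjustment and a threshold of 0.05. This scale understates the change of low genes. The script was tested on simulated data. Alternatives were a pseudocount of 0.1, no filter or a mean FPKM of at least 5, median of ratios scaling, a replicate block, sex as a covariate, array weights, limma voom on the reads and leaving out each library. Replicate numbers did not pair the libraries.

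The 10 genes, the lists and the tests were chosen with earlier results of these data known. By rule the named genes were the 10 and the 5 most like each of Angptl4, Lpl and Pdk4. In each list they were the 2 of highest mean FPKM and the 2 of smallest p where none passed. Of the markers so picked, the FPKM values of Acta1, Mylpf, Myoz1, Actn3, Myl3, Tnnt1, Eng, Vwf, Col1a1, Col3a1 and Mfap5 are not printed. Apoc1, Apoc2, Apoc3, Ckm and Plin1 were named after their values were seen. Figures used Python 3.11.15 and matplotlib 3.10.9.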

Additional observations from a re-analysis of the deposited data

How the results depend on the processing

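Angptl4 and Lpl kept their direction under every alternative run, with log2 differences without 1 library each of -1.04 to -0.85 for Angptl4 and 0.40 to 0.60 for Lpl. Their ratio difference ranged from -1.63 to -1.40 in the same fits. Leaving out 1 library gave 3 to 4 genes of the 10 with every L7 value higher and 1 to 2 with every L7 value lower, the 2 without Control replicate 1. The count of genes that passed limma was 0 as fitted, 3 with array weights, 0 to 1 without 1 library each (the 1 without L7 replicate 1) and 1 with median of ratios scaling without L7 replicate 3, an alternative chosen after seeing the data, and none of these was among the 10 genes. With a replicate block the count was 0 and the log2 difference of Angptl4 was -0.94, a value that a block cannot change in a balanced design. Deviations of same-numbered libraries correlated at 0.32, -0.065 and 0.087, so the numbers were not taken as pairs. Of 149 alternative values of the 10 genes, 147 moved by less than the gene's own spread between libraries. A filter or a block cannot move these values, so those settings were no check of them. A wide spread also let large moves count among the 147. Without L7 replicate 3, Pdk4 went from 0.43 to -0.42 and Cd36 from 0.29 to -0.01. The values outside the 147 were Lmf1 and Ppard under median of ratios scaling, at 0.14 each. That scaling moved the median of all genes from -0.15 to -0.0015. For the cofactor list the median was -0.04 among genes of mean FPKM at least 5, a setting that drops the lower genes. For adipocyte markers the median was 1.52 with a pseudocount of 0.1. It was 0.83 with a pseudocount of 1, which understates the change of low genes more. With 42 to 91 reads per library, Cpt1b had the least depth of the 10.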
